A study of Mus musculus with 155 samples.

Results

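The replication-dependent histone genes are the clustered genes that supply the linker histone H1 and the core histones H2A, H2B, H3 and H4. They were taken here by name, as every protein coding gene whose NCBIM37 (mm9) symbol begins with Hist1h, Hist2h, Hist3h or Hist4h. The rule found 55 genes among the 55471 in the count tables. Of these, 44 lie on chromosome 13, 9 on chromosome 3 and 2 on chromosome 11. A further 12 genes of these names in the annotation were not matched to the tables and were not analysed here. By class, 6 members code for H1, 17 for H2A, 14 for H2B, 6 for H3 and 12 for H4. In all, 35 of the 55 had 10 or more counts in at least 1 library, namely 6 of H1, 5 of H2A, 10 of H2B, 4 of H3 and 10 of H4. The number was 33 in the ESC libraries, 26 in the RA libraries and 20 in the OPC libraries. There were 7 members at 0 in every library: Hist2h2aa1, Hist2h2aa2, Hist2h3b, Hist2h3c1, Hist1h2bq, Hist1h2br and Hist1h4m.

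RNA-seq was performed on KH2 mouse ESCs in which Dox switches on 1 extra copy of SNAP-HA-tagged H3.3, either wild type (WT-H3.3) or mutated at lysine 27 to methionine (H3.3K27M) or leucine (H3.3K27L). All lines, the WT-H3.3 controls included, therefore carried the tagged H3.3 and received Dox, from a transgene at 1 site. The 32 ESC libraries held 8 of each line and 8 of the WT-H3.3 line given GSK343, which blocks PRC2, the complex that methylates H3K27, with 2 replicates at 4, 8, 24 and 72 h of Dox. Retinoic acid (RA) treated cells, labelled as neural progenitors, gave 6 libraries, 1 of each line at 24 and at 72 h of Dox, and cells labelled as oligodendrocyte progenitors (OPCs) gave 4, 1 of WT-H3.3 and 1 of H3.3K27M at each of these times.

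As background, replication-dependent histone genes are transcribed mostly in S phase, when new DNA has to be packed into nucleosomes. Their mRNAs end in a conserved stem-loop bound by the protein SLBP and, unlike other mRNAs, mostly carry no poly(A) tail. Both kits that the study names select or prime on poly(A), so the counts here come from the polyadenylated or internally primed share of these transcripts and are not a measure of histone mRNA as a whole. Some of these genes are known to make polyadenylated transcripts as well, which end further downstream, in cells that are differentiating or have left the cell cycle.

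The stem-loop sequence was looked for in the mm9 genome, because it marks the end that a poly(A) library would not see. The motif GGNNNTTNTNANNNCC stood within 200 bases after the stop codon, on the coding strand, in 51 of the 55 members, and began 22 to 59 bases after it. It was present in the same window of 0.462% of 22316 other coding genes. No match was found for Hist1h2an, Hist1h2al, Hist2h2be or Hist2h2bb. The 16-base core was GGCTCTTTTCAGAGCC in 31 members, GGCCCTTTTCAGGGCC in 7 and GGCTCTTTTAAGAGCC in 7. The sites of the 6 members with the highest mean CPM (read counts scaled to 1e+06 per library after TMM normalisation) are shown first. Those of 3 other members called between the OPC lines follow. All are given with 5 bases on each side, 5′ to 3′ on the coding strand. The core is in capitals.
Hist1h1c, chr13:23831376-23831401 (+): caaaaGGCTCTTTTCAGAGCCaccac
Hist1h4i, chr13:22132830-22132855 (-): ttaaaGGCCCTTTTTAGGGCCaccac
Hist3h2a, chr11:58768669-58768694 (+): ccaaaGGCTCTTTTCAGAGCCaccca
Hist1h2bc, chr13:23776511-23776536 (+): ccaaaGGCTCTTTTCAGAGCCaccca
Hist1h1e, chr13:23713646-23713671 (-): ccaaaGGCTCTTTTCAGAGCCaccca
Hist3h2ba, chr11:58762846-58762871 (+): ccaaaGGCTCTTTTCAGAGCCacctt
Hist1h4h, chr13:23623322-23623347 (+): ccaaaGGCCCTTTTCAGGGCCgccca
Hist1h1b, chr13:21871701-21871726 (-): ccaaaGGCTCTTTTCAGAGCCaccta
Hist1h3c, chr13:23836911-23836936 (-): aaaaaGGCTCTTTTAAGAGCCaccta
The core is the same in Hist1h1c and Hist1h1e, which behaved differently below, and differs in Hist1h4i, Hist1h4h and Hist1h3c. The annotated transcript beyond it also differed between members. In 19 members the annotation ran 100 bases or more past the stem-loop. It ran 2010 bases past it in Hist1h2ac, 1487 in Hist3h2a, 839 in Hist1h1c, 272 in Hist1h2bc, 166 in Hist3h2ba and 150 in Hist1h4i, but 74 in Hist1h3c, 46 in Hist1h4h and 27 in Hist1h1e. In Hist1h1b it stopped before the stem-loop. The poly(A) signal AATAAA stood in the last 50 annotated bases of 11 members, Hist1h1c, Hist1h2bc and Hist3h2ba among them.

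Promoters were read from RefSeq for the 50 members matched there (GRCm38.p6, 250 bases before to 50 bases after the start), since genes that move together may share elements. On either strand, CCAAT was present in 84.0% of the members' promoters and in 37.9% of all 27025 promoters of that length. TATAAA was present in 62.0% against 14.2%, and TATATA, which can overlap it, in 24.0% against 5.94%. The promoters of the linker histone genes Hist1h1c and Hist1h1e, the members of highest count that moved in opposite directions between the OPC lines, are shown with matches to these motifs in capitals.
Hist1h1c, chr13:23738557-23738856 (+): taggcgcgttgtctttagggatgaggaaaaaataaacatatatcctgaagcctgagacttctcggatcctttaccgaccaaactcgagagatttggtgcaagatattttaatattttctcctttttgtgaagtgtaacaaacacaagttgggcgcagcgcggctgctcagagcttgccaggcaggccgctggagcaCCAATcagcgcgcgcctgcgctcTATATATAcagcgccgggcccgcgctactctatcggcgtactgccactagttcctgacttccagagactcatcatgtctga
Hist1h1e, chr13:23622509-23622808 (-): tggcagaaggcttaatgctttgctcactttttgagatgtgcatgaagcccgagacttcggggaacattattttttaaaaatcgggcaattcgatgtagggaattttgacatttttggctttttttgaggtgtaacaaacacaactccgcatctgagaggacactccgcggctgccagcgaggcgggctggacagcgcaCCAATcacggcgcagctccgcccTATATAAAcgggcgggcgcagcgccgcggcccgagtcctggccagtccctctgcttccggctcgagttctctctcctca
Both hold CCAAT upstream of an AT-rich box at a like distance from the start. These are letter matches in a window of fixed length and were not tested as sites.

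Total counts ran from 1247934 to 21161392 in 31 of the ESC libraries, from 2239137 to 22269533 in the RA libraries and from 7499258 to 12387113 in the OPC libraries. The remaining ESC library, replicate 2 of H3.3K27L at 72 h, had 68378 counts, of which 1 fell on a member, and ranges of levels below leave it out, except where they are given over all 8 libraries of a line or all 16 of a time. Members took 0.00278% to 0.00871% of counts in these ESC libraries and up to 0.1% in OPCs, so many values rest on few reads. A count of 3, taken as the floor, was 0.135 to 2.4 CPM outside the shallow library. Libraries also differed in the Spearman coefficient of CPM with annotated exon length over 8671 genes. It was -0.11 to 0.15 in the 31 ESC libraries, 0.20 to 0.27 in the RA libraries of 24 h, -0.03 to -0.02 in those of 72 h and -0.01 to 0.0 in OPCs. Which kit made which library is not given in the sources used here. Near-identical copies share reads: only 6 members were unique in all their 50-base stretches, and 8 in under 20% of them. The share was 100% for Hist3h2ba, 91.5% for Hist1h1c, 77.8% for Hist1h1e, 66.0% for Hist3h2a, 59.8% for Hist1h4i and 52.7% for Hist1h2bc. Hist3h2a also overlaps Trim17 in the annotation, and counts of overlapping genes cannot be told apart without strand.

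In ESCs the members were low. Their summed level was 29.6 to 92.3 CPM (median 49.4) over the 31 libraries. Hist1h1c, a linker histone gene, was at 3.80 to 13.2 CPM with a median of 8.81. Hist1h2bc, an H2B gene, was at 3.3 to 9.25 (median 6.75), and Hist1h4i, an H4 gene, at 2.52 to 8.76 (median 5.83). These 3 had counts in all 31 libraries. The neighbouring genes Hist3h2a (H2A) and Hist3h2ba (H2B) were near the floor, at 0 to 2.48 (median 0.753) and 0 to 1.09 CPM (median 0.438), while Hist1h1e, another linker histone gene, ranged from 0.347 to 7.39 (median 2.04). The map of all 35 members shows ESC libraries without clear blocks by line, and much stronger signal in RA cells at 72 h and in OPCs. Over the 31 ESC libraries, the summed level and the length coefficient had a Pearson r of -0.65 and a Spearman rho of -0.65, given as a description, since the libraries share times, lines and preparation. The part of library preparation in the ESC levels was not tested.

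**Figure D1:**
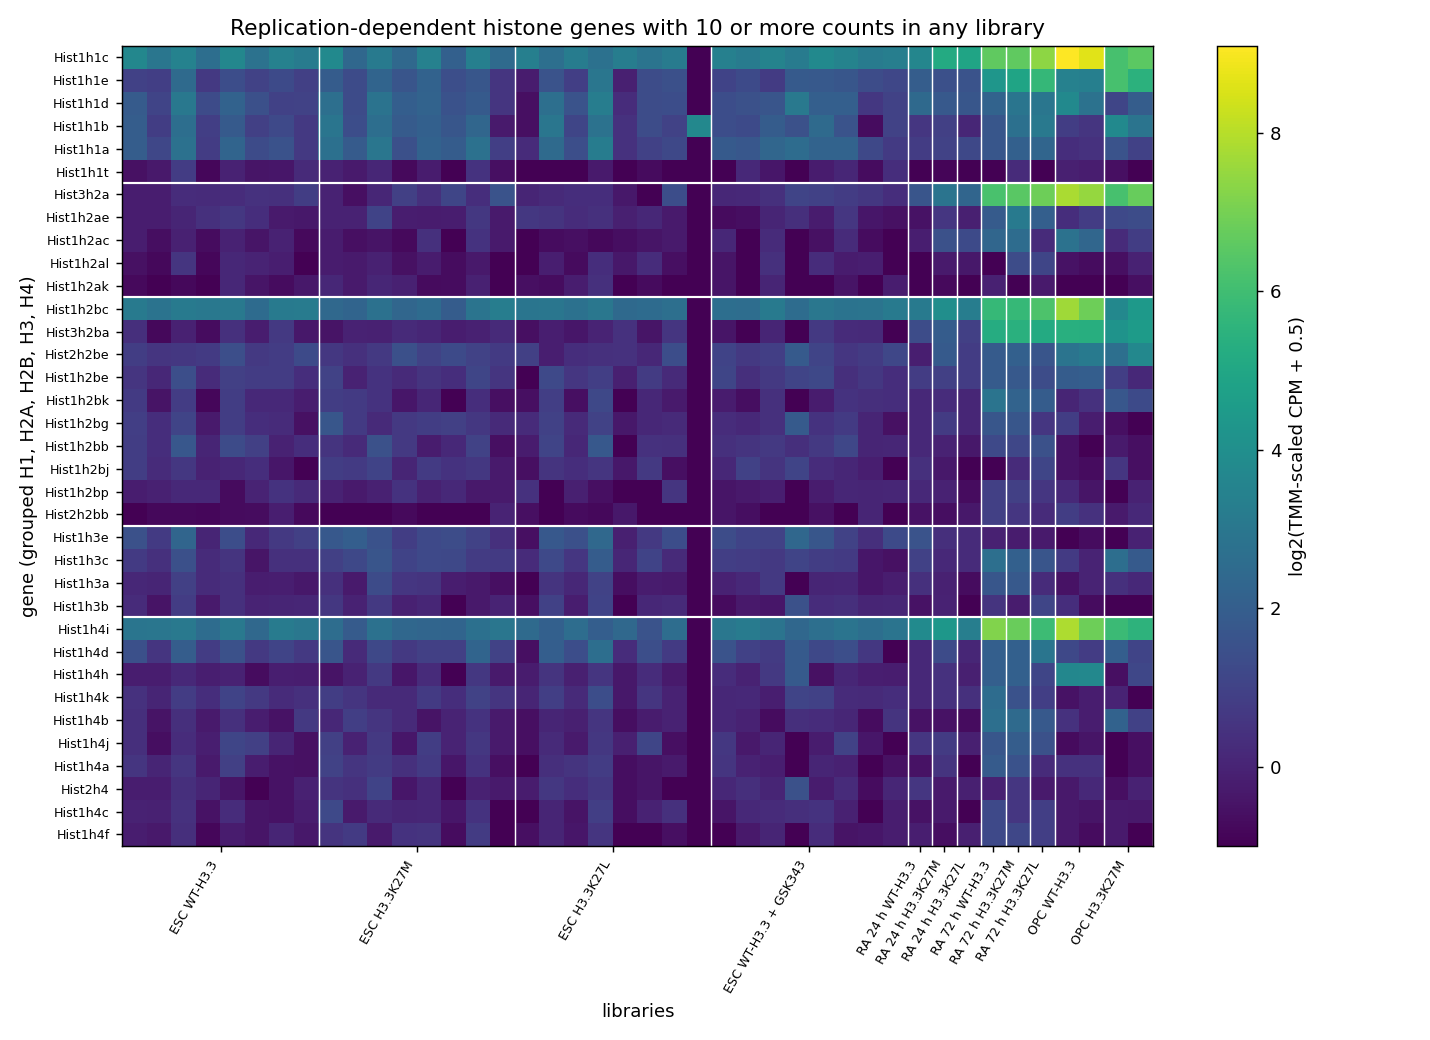
Level of the 35 members with 10 or more counts in any library (rows, grouped as H1, H2A, H2B, H3 and H4) in the 42 libraries (columns, grouped by stage and line), as log2 of TMM-scaled CPM plus 0.5. A few rows, such as Hist1h1c, Hist1h4i, Hist3h2a and Hist1h2bc, brighten in RA cells at 72 h and in OPCs, and the empty ESC column is the library of 68378 counts.

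The first comparisons asked whether mutant H3.3 or PRC2 inhibition altered these genes in ESCs. No member was called, at an adjusted p under 0.05 by edgeR's quasi-likelihood test with a fold of at least 2, among the 24 that passed the filter on low counts. For H3.3K27M against WT-H3.3 over all 4 times, 0.0142% of all 14076 genes tested were called either way, for H3.3K27L 3.46% and for GSK343 0.0% (4.41% at an unadjusted p under 0.05). The members' median log2 fold change was 0.29, -0.20 and -0.04 in these comparisons, beside -0.01, -0.01 and 0.01 for all genes. At 24 and 72 h alone, again no member was called (0.0%, 0.547% and 0.0% of all genes, and 4.19%, 10.6% and 0.98% at an unadjusted p under 0.05, by edgeR). All 3 comparisons share the WT-H3.3 libraries.

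The member nearest a call was Hist1h4i. Its level was 4.83 to 8.69 CPM (median 7.41) in the 8 WT-H3.3 libraries, 3.27 to 7.27 (median 5.11) with H3.3K27M, and 4.73 to 8.76 (median 6.83) with GSK343. With H3.3K27L it was 0 to 5.56 (median 4.31), the 0 being the shallow library, so the ranges of the lines overlapped. Against WT-H3.3 its log2 fold change in H3.3K27L was -0.70 (SE 0.19, edgeR adjusted p = 0.0216), which is below the 2-fold limit. By the adjusted p alone, 5.19% of all genes were lower in this comparison. In H3.3K27M it was -0.46 (SE 0.17, edgeR adjusted p = 0.311), and for Hist1h2bc -0.50 (SE 0.15, edgeR adjusted p = 0.201), the lowest adjusted p of a member there. Whether the H3.3K27M or H3.3K27L differences changed between the early and late times was tested by an interaction contrast, in which no member and 0.0% of all genes were called (0.583% and 1.30% of all genes at an unadjusted p under 0.05, by edgeR).

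Over the time in Dox, with all 4 ESC groups pooled, 2 of the 24 members were lower at 24 and 72 h than at 4 and 8 h and none higher, where 0.54% of all genes were called lower and 0.753% higher. Hist2h4 was at 0.273 to 2.36 CPM (median 0.768) in the 16 early libraries and 0 to 0.681 (median 0.237) in the 16 late ones. Its log2 fold change was -1.87 (SE 0.46, edgeR adjusted p = 0.0104), and no ESC library had more than 14 counts of it. Hist1h2bj, an H2B gene, was at 0.173 to 1.58 (median 0.963) against 0 to 1.15 CPM (median 0.478), a log2 fold change of -1.06 (SE 0.34, edgeR adjusted p = 0.0383). Early and late libraries overlapped for both, and both values are close to the floor of 3 counts. Hist1h3c and Hist1h3a, which code for H3, passed the adjusted p without the fold, as did 8.35% of all genes in this direction, and 21 of 24 members were negative with a median of -0.48. Hist1h1c, Hist1h2bc and Hist1h4i, which had the most ESC counts, were at 0.03, -0.03 and -0.02. The length coefficient moved with time as well, with a median of -0.015 in the early and 0.125 in the late libraries, and its part in the result was not tested. Without the H3.3K27L library of 72 h, replicate 1, which leaves the shallow one alone in its group, neither was called, and leaving out 1 library in turn gave 0 to 4 called members. The call of Hist1h2bj was also lost with DESeq2.

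In RA cells the members differed strongly between 24 and 72 h of Dox. The cells of 72 h had 24 h of RA before Dox, and the time in RA of the cells of 24 h is not stated in the sources used here. At 72 h, 19 of the 21 members tested were called higher and 0 lower, where 20% of all 12265 genes were called higher and 22.9% lower. The members' median log2 fold change was 2.48 beside -0.07 for all genes. Their summed level was 66.3 CPM in WT-H3.3, 111 in H3.3K27M and 73.8 in H3.3K27L at 24 h, and 513, 514 and 584 at 72 h. By class, 5 of 5 tested H1 genes, 2 of 3 H2A, 5 of 6 H2B, 2 of 2 H3 and 5 of 5 H4 were called higher. The exceptions were Hist2h2be and Hist1h2ac. These counts depend largely on the filter on low counts. Most members tested, with both H3 genes and all H4 genes but Hist1h4i among them, passed it through the libraries of 72 h. Hist1h4b, for example, was at 0.139 to 0.205 CPM at 24 h and 3.02 to 5.95 at 72 h. The counts in total and by class were thus partly fixed in advance and are not a result about the classes. Hist1h1c, Hist1h4i, Hist1h2bc and Hist3h2a had 13 or more counts in every library of 24 h and did not depend on those of 72 h. Members left untested went both ways. The H3 gene Hist1h3e went from 0.694 to 2.46 CPM down to 0.335 to 0.458, and Hist1h4k from 0.615 to 0.875 up to 1.34 to 5.49.

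Hist3h2a rose furthest among the members with more than 10 counts in all 6 libraries. It was at 2.67, 6.91 and 4.44 CPM in WT-H3.3, H3.3K27M and then H3.3K27L at 24 h and at 73.7, 90.2 and 117 at 72 h. Its log2 fold change was 4.46 (SE 0.22, edgeR adjusted p = 4.9e-09). All libraries of 72 h lay above all of 24 h, as they did for 16 of the 21 members and for 66.0% of all genes in either direction. Its neighbour Hist3h2ba went from 2.05, 3.31 and 1.39 to 38.0, 42 and 35.8 CPM, a log2 fold change of 4.26 (SE 0.24, edgeR adjusted p = 1.75e-08). The 2 genes of chromosome 11, which lie next to each other, thus rose to a like extent. Hist1h4i was at 13.7, 20 and 9.58 CPM at 24 h and at 145, 110 and 61.0 at 72 h (log2 fold change 3.03, SE 0.19, edgeR adjusted p = 3.97e-08). For Hist1h1e the values were 3.49, 2.24 and 2.5 and then 19.2, 29.4 and 52.9 CPM (3.85, SE 0.30, edgeR adjusted p = 2.23e-07). These groups did not overlap, and the 72 h value of Hist1h4i was highest in WT-H3.3 whereas that of Hist1h1e was highest in H3.3K27L.

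Hist1h1c was at 11.9 CPM in WT-H3.3, 35.4 in H3.3K27M and 29.6 in H3.3K27L at 24 h and at 98.4, 99.1 and 168 at 72 h. Hist1h2bc was at 8.20, 15.4 and 9.16 and then at 53.6, 53.3 and 77.7. Their log2 fold changes were 2.48 (SE 0.23, edgeR adjusted p = 1.24e-06) and 2.68 (SE 0.22, edgeR adjusted p = 4.34e-07), with no overlap between times. Among members of few reads, Hist1h4b (H4) had 1, 4 and 1 counts at 24 h and 13, 15 and 9 at 72 h although every library of 72 h was shallower than every one of 24 h. The 3 libraries of 24 h had length coefficients of 0.20 to 0.27 and those of 72 h of -0.03 to -0.02. Time in Dox and this library property cannot be told apart here.

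**Figure D2:**
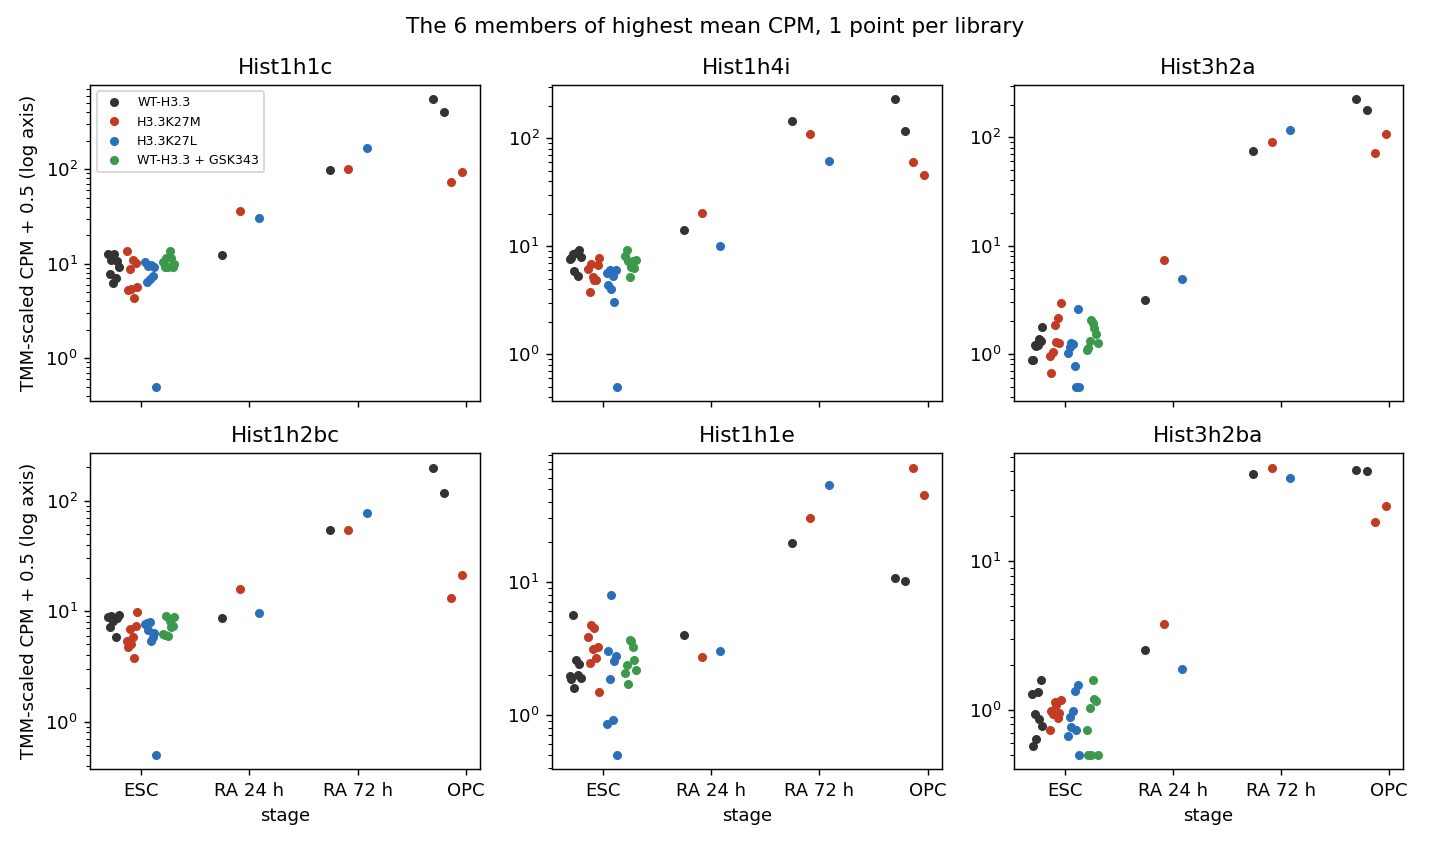
TMM-scaled CPM plus 0.5 (log axis) of the 6 members of highest mean CPM by stage, 1 point per library, coloured by line or treatment. Hist3h2a and Hist3h2ba sit near the floor in ESCs and at 35.8 to 117 CPM in RA cells at 72 h. In OPCs the H3.3K27M points lie below the WT-H3.3 points in 5 panels and above them for Hist1h1e.

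Between the lines in RA cells few members were called. For H3.3K27M against WT-H3.3, with 1 library a time in each line, no member was called (0.0163% of all genes were, and 6.16% at an unadjusted p under 0.05, by edgeR), with log2 fold changes from -1.0 to 1.46. For H3.3K27L, Hist1h4i alone was called lower and none higher (2.15% of all genes lower and 1.52% higher), with log2 fold changes from -2.23 to 0.90 over the members and a median of -0.97 for the 5 tested H4 genes. Its values were 9.58 and 61.0 CPM in H3.3K27L against 13.7 and 145 in WT-H3.3 at 24 and 72 h, lower within each time, with a log2 fold change of -1.02 (SE 0.24, edgeR adjusted p = 0.0235). The call rests on a fold close to the limit: it was lost with DESeq2, with chromosome 8 kept, with only the libraries compared, and with both times pooled. Hist1h1c was at 168 against 98.4 CPM at 72 h and 29.6 against 11.9 at 24 h in H3.3K27L and WT-H3.3, with a log2 fold change of 0.90 (SE 0.28, edgeR adjusted p = 0.0795). Without 1 of the 4 libraries, Hist1h1c or Hist1h1e was called higher in H3.3K27L in some fits, and 0 to 3 members were called in all. Hist1h1c was likewise called higher in H3.3K27M when either of the libraries of 72 h compared was left out.

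Against ESCs, the stages were compared in 1 model of the 42 libraries with 30 members tested among 15697 genes. In RA cells at 24 h, 5 members were called higher and 3 lower, where 23.8% of all genes were called higher and 20% lower. Against the ESC libraries with a length coefficient under 0.05 alone, an alternative added after seeing the data, 5 were higher and 11 lower, and leaving out 1 library in turn gave 5 to 10 called members (5 without H3.3K27M at 24 h). At 72 h, 19 were higher and 1 lower (25.9% and 32.3% of all genes), with a members' median of 1.47 beside -0.23 for all genes. Some of these members passed the filter on low counts only through the libraries of 72 h, as given below. In OPCs, 11 were higher and 7 lower (30.1% and 37.1% of all genes), with a median of 0.62 beside -0.19. With DESeq2's size factors in place of TMM, the split of all genes at 72 h turned from 4063 higher and 5068 lower to 5046 and 3994, and the median of all genes moved from -0.23 to 0.18. The member counts were then 23 and 0 at 72 h, and 15 and 5 in OPCs, so the members higher at 72 h remained the larger number under both scalings. Stage, experiment and library preparation cannot be told apart in these comparisons, and in bulk samples fewer cells of a type and less RNA per cell cannot be told apart either.

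A few genes were called higher in all 3 differentiated stages, namely Hist3h2a, Hist3h2ba, Hist1h4i, Hist1h1c and the H2A gene Hist1h2ac. Hist1h2ac had the largest log2 fold change at 24 h, 2.62 (SE 0.52, edgeR adjusted p = 2.34e-05), with 0.410, 2.33 and 1.94 CPM in WT-H3.3, H3.3K27M and then H3.3K27L against 0 to 0.908 (median 0.181) in ESCs. Its WT-H3.3 library, with 2 counts, lay within the ESC range. Hist3h2a was at 70.7 to 224 CPM in OPCs, where ESC libraries did not pass 2.48. Its log2 fold change against ESCs was 2.45 (SE 0.34, edgeR adjusted p = 3.18e-08) in RA cells at 24 h, 6.69 (SE 0.26, edgeR adjusted p = 1.2e-25) at 72 h and 7.23 (SE 0.26, edgeR adjusted p = 1.77e-27) in OPCs. No RA or OPC library overlapped the ESC range. Hist3h2ba behaved likewise, at 2.15 (SE 0.37, edgeR adjusted p = 3.14e-06), 6.16 (SE 0.28, edgeR adjusted p = 6.48e-23) and 5.63 (SE 0.28, edgeR adjusted p = 2.49e-22). Hist1h4i was at 1.30, 4.05 and 3.81, and Hist1h1c at 1.60, 3.74 and 4.71, all of them called. Hist1h1c overlapped the ESC range at 24 h, when the WT-H3.3 library was at 11.9 CPM and the highest ESC library at 13.2. Hist1h2bc (0.76, 3.13 and 3.24) and Hist1h1e (-0.01, 3.61 and 3.40) were called at 72 h and in OPCs but not at 24 h.

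Of the other members, 12 more were called higher at 72 h, and some members were lower. In all, 4 of 4 tested H2A, 5 of 8 H2B and 6 of 9 H4 genes were higher at 72 h. Only 4 of the 17 H2A genes passed the filter, Hist1h2ab mostly through its levels in these RA libraries (1.03 to 2.01 CPM). The H4 genes Hist1h4f (1.34 to 1.83 CPM there, at most 1.21 in ESCs) and Hist1h4b (3.02 to 5.95, at most 1.31 in ESCs) passed it likewise. Hist1h2ae and Hist1h4h passed it mainly through RA cells of 72 h or OPCs. The counts by class were thus partly fixed by the filter and are not a result about the classes. Hist1h3e, an H3 gene, was at 0.173 to 4.85 CPM (median 1.84) in ESCs, at 0.694, 0.778 and 2.46 in the RA libraries of 24 h, at 1 count in each of those of 72 h and at 0 to 3 counts in OPCs. It was called lower at 72 h and in OPCs, and its values there are at or under the floor of 3 counts. In OPCs the H4 genes Hist1h4k and Hist1h4j, at no more than 3 counts a library, were called lower as well, with Hist1h2bb, Hist1h2bg and Hist1h2bj (H2B) and Hist1h1a (H1). Hist1h1a was at 0.694 to 8.96 CPM (median 3.10) in ESCs and 0.739 to 2.51 in OPCs, with ranges that overlapped. Hist2h2be, an H2B gene with no stem-loop match in the window, was at 0.397 to 3.15 CPM (median 1.17) in ESCs, 2.68 to 3.76 in RA cells at 72 h and 6.03 to 12.8 in OPCs. Its log2 fold change in OPCs was 2.38 (SE 0.24, edgeR adjusted p = 4.5e-12).

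From RA cells of 72 h to OPCs, 12 of 30 members were called lower and 1, Hist2h2be, higher (15.3% and 15.4% of all genes). Hist1h4j fell from 6, 10 and 7 counts to 0 to 2, in OPC libraries that were deeper, and Hist1h4k from 12, 7 and 4 to 0 to 3. The 6 members of highest mean CPM were not called, with log2 fold changes of 0.97 for Hist1h1c, 0.54 for Hist3h2a, 0.11 for Hist1h2bc, -0.21 for Hist1h1e, -0.24 for Hist1h4i and -0.53 for Hist3h2ba. The OPC groups behind these averages differed strongly by line. Without the WT-H3.3 or the H3.3K27M RA library of 72 h, 6 members were called lower and 0 higher.

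In OPCs the members went in both directions between H3.3K27M and WT-H3.3. Of 18 tested, 5 were called higher and 8 lower, where 13.0% of all 12511 genes were called higher and 15.0% lower, 28.0% in all. The summed level was 1310 and 910 CPM in WT-H3.3 at 24 and 72 h and 355 and 377 in H3.3K27M, and leaving out the 6 members of highest mean CPM it was 57.9 and 48.5 against 51.3 and 45.3. The difference in the sum lies in those 6 genes, but this is partly fixed by how they were picked. Their mean over the 42 libraries includes the high WT-H3.3 OPC values, such as 548 and 401 CPM for Hist1h1c. Of the 6, Hist1h1e was higher in H3.3K27M. The near-equal sums of the remaining members hide opposite changes. At 24 h Hist1h4h was at 12.3 CPM in WT-H3.3 and 0.168 in H3.3K27M, and Hist1h1b at 1.27 and 13.2. The 2 lines did not overlap in 16 of 18 members, 7 above and 9 below, beside 76.5% of all genes, a share that groups of 2 libraries reach easily. Each line had 1 library at each Dox time, so Dox time was left to the spread. The labels number the libraries of 72 h as replicate 1 and the table headers as replicate 2, so that whether the 2 libraries of a line are separate replicates is not known.

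Hist1h1c fell from 548 and 401 CPM in WT-H3.3 to 71.9 and 93.0 in H3.3K27M (24 and 72 h in this order). Its log2 fold change was -2.49 (SE 0.18, edgeR adjusted p = 1.18e-06). Hist1h2bc fell from 199 and 116 to 12.7 and 20.8 CPM (-3.20, SE 0.27, edgeR adjusted p = 4.29e-06). Hist1h2bc, the lower of both, had 1889 and 936 counts in the WT-H3.3 libraries. Hist1h4i was at 229 and 115 against 59.3 and 45.3 CPM (-1.68, SE 0.27, edgeR adjusted p = 0.00037), and Hist3h2a at 224 and 179 against 70.7 and 106 (-1.16, SE 0.18, edgeR adjusted p = 0.000349). Hist3h2ba was at 40.7 and 39.9 against 17.8 and 23 CPM, and its log2 fold change of -0.95 (SE 0.18, edgeR adjusted p = 0.00128) passed the adjusted p but not the fold. All 5 genes had both H3.3K27M libraries below both WT-H3.3 libraries.

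Hist1h1e went the other way. It was at 10.2 and 9.67 CPM in WT-H3.3 and 71.6 and 44.1 in H3.3K27M, a log2 fold change of 2.57 (SE 0.25, edgeR adjusted p = 1.09e-05). A further linker histone gene, Hist1h1b, was at 1.27 and 0.992 against 13.2 and 6.97 CPM (3.16, SE 0.44, edgeR adjusted p = 0.000145), and the third, Hist1h1a, at 0.739 and 0.868 against 2.51 and 1.43 (1.31, SE 0.53, edgeR adjusted p = 0.0594). Hist1h1d, in contrast, fell with Hist1h1c, from 13.3 and 6.45 to 1.68 and 3.49 CPM (-1.90, SE 0.44, edgeR adjusted p = 0.00392). Of the 5 tested H1 genes, 2 were thus called higher, 2 lower and 1 not called.

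The core histone genes split in a like manner. Hist1h4h fell from 12.3 and 12.6 CPM to 0.168 and 1.74, that is from 117 and 102 counts to 1 and 11 (-3.63, SE 0.50, edgeR adjusted p = 0.000137). Hist1h2ac was at 6.54 and 4.59 against 0.670 and 1.27 (-2.47, SE 0.46, edgeR adjusted p = 0.00103), and Hist1h2be at 3.38 and 3.59 against 1.34 and 0.634 (-1.78, SE 0.48, edgeR adjusted p = 0.00972). The H3 gene Hist1h3c rose from 1.16 and 0.496 to 5.70 and 3.17 CPM (2.39, SE 0.52, edgeR adjusted p = 0.0027), and the H2B gene Hist1h2bk from 0.528 and 0.868 to 2.85 and 1.90 (1.79, SE 0.53, edgeR adjusted p = 0.015). Hist1h4b, an H4 gene, rose from 0.844 and 0.372 to 4.02 and 1.43 (2.12, SE 0.64, edgeR adjusted p = 0.0164). The genes that rose had 3 to 12 counts in the WT-H3.3 libraries, apart from Hist1h1e, which had 97 and 78. Hist1h2ae, Hist1h4d and Hist2h2be did not pass the test.

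**Figure D3:**
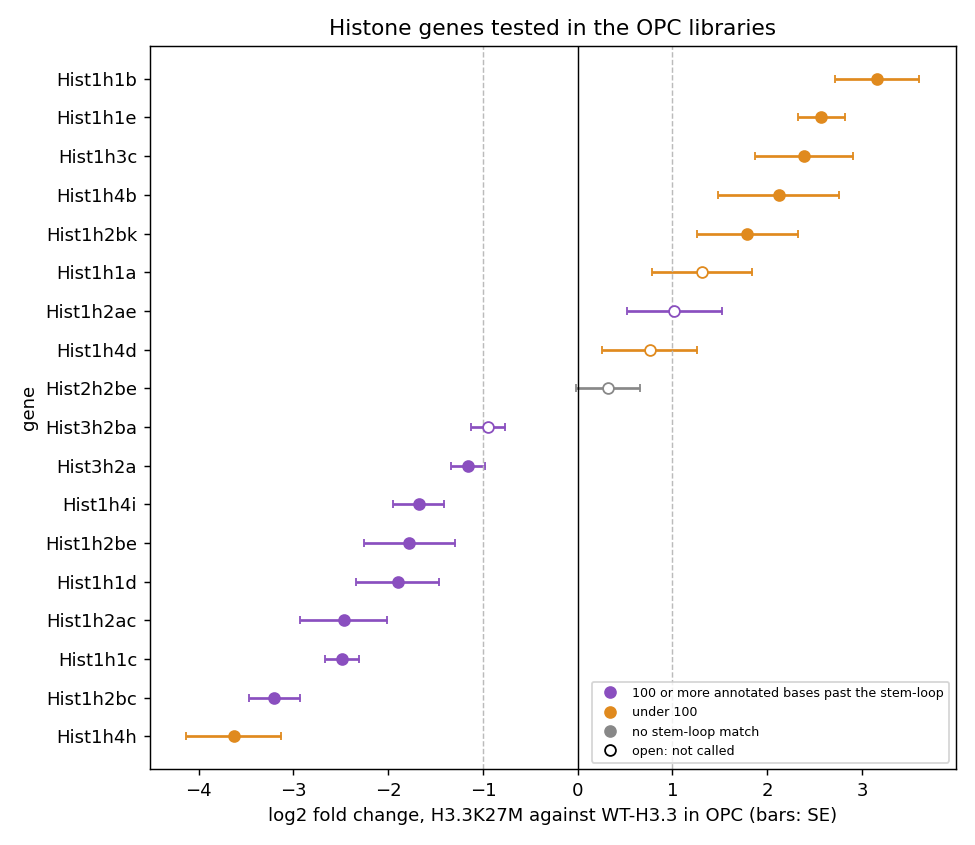
Log2 fold change of the 18 members tested in OPCs, H3.3K27M against WT-H3.3 (bars, SE; filled points, called; dashed lines, 2-fold), coloured by how far the annotated transcript runs past the stem-loop. Points for 100 bases or more lie mostly on the left, down to -3.20 for Hist1h2bc, and those under 100 mostly on the right, up to 3.16 for Hist1h1b, with Hist1h4h as the exception at -3.63.

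The members that fell and those that rose between the OPC lines differed in the annotated length past the stem-loop. The limit of 100 bases was chosen with these values known, and the counts are a description. Of the 9 tested members with 100 bases or more, 7 were called lower and 0 higher, with a median log2 fold change of -1.78. Of the 8 with fewer, 5 were called higher and 1, Hist1h4h, lower, with a median of 1.96. Of these, Hist1h1b, Hist1h3c, Hist1h2bk and Hist1h4b passed the filter on low counts through the H3.3K27M libraries, and Hist1h4h through those of WT-H3.3. In the longer group Hist1h2ac and Hist1h2be also passed it through WT-H3.3, so the split depends in part on the filter. Against ESCs, the longer group had 6 higher and 2 lower of 12 in OPCs (median 2.0), and the shorter group 4 higher and 5 lower of 17 (median -0.72). In RA cells at 24 h, where the counts depend on the ESC libraries used, the longer group had 5 higher and 0 lower, and the shorter group 0 higher and 3 lower. The RA libraries of 24 h also had the highest length coefficients, 0.20 to 0.27. Of the 5, Hist1h2ac, Hist3h2a and Hist1h1c have annotated exon lengths of 2482, 1990 and 1560 bases, but Hist3h2ba and Hist1h4i only 620 and 537. The split at 24 h and this library property cannot be told apart. At 72 h both groups had mostly higher members, 8 of 12 (median 2.95) and 10 of 17 (median 1.47), and from 24 to 72 h in RA 9 of 10 and 10 of 10 were called higher. Between the RA times, all shorter members tested but Hist1h1e passed the filter through the libraries of 72 h, where they were higher. Against ESCs some shorter members also passed it through those libraries, such as Hist1h4f and Hist1h4b. The counts at 72 h therefore cannot show whether the groups differed there. Among the members tested, the groups differed between the OPC lines and at 24 h, within the limits given. An annotated end says what has been seen in other samples, and the ends of the transcripts counted here were not measured.

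**Figure D4:**
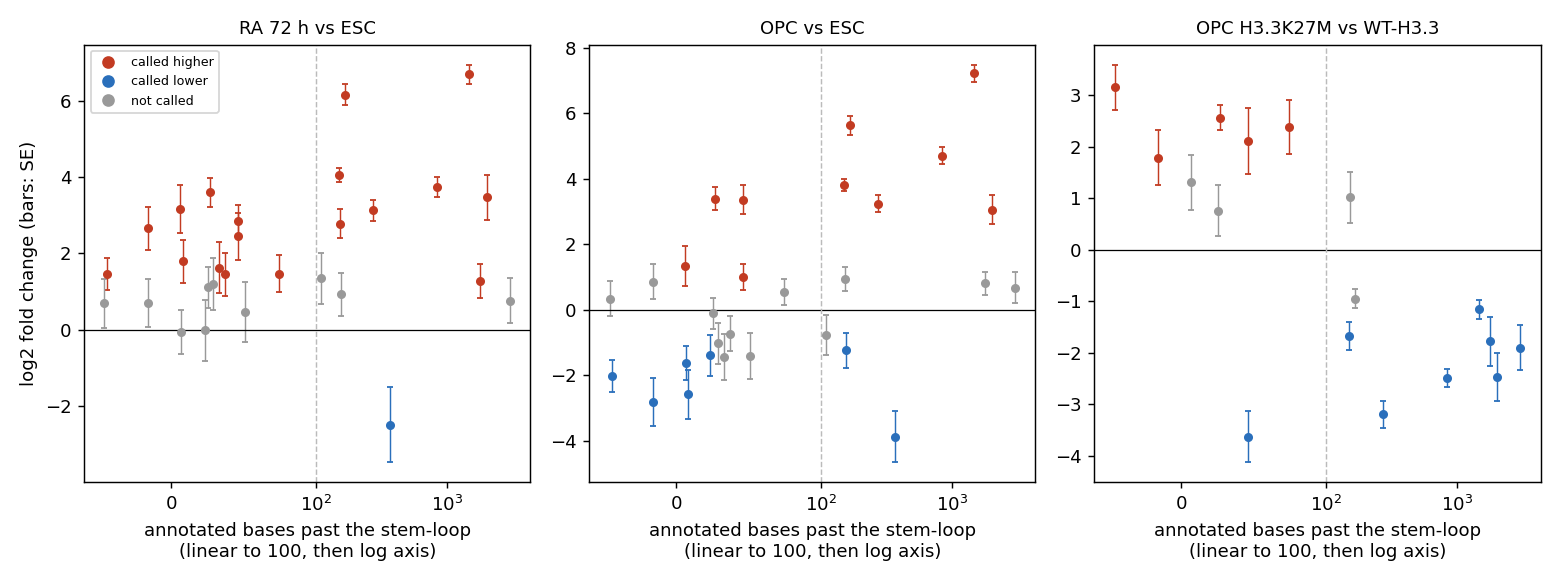
Log2 fold change (bars, SE) of members against the annotated bases past the stem-loop (linear to 100, then log axis), for RA cells at 72 h against ESCs, OPCs against ESCs and H3.3K27M against WT-H3.3 in OPCs. In the right panel 7 of 9 members to the right of the dashed line at 100 bases were called lower.

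The genes that make and use histone mRNA were described from lists taken with earlier results known. Of the genes for 3′ end processing, 12 of 14 were in the tables. Slbp, whose protein binds the stem-loop, was at 133 to 188 CPM in ESCs, 91.1 to 110 in RA cells at 24 h, 13.3 to 18.4 at 72 h and 5.45 to 11.7 in OPCs. Each stage lay below the one before without overlap, and the log2 fold change against ESCs was -3.34 (SE 0.16, edgeR adjusted p = 2.43e-22) at 72 h and -4.47 (SE 0.15, edgeR adjusted p = 9.66e-29) in OPCs. The libraries with the highest histone sums, those of WT-H3.3 OPCs, thus had the lowest Slbp levels. Lsm10, a part of the U7 particle that cuts histone mRNAs, was called higher in both (1.09 and 1.72). In all, 1 of 12 was called higher and 6 lower at 72 h, where 25.9% and 32.3% of all genes were. The numbers were the same in OPCs, where 30.1% and 37.1% of all genes were. Between the OPC lines none of 11 was called, where 28.0% of all genes were. Slbp was at 6.54 and 5.45 CPM in WT-H3.3 and 11.7 and 8.24 in H3.3K27M (0.76, SE 0.29, edgeR adjusted p = 0.0465, under the fold limit).

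Of 7 genes that drive histone gene transcription, 4 were lower and 0 higher in OPCs than in ESCs (37.1% and 30.1% of all genes). Npat, the cofactor of histone gene promoters, was among the lower ones (-1.52, SE 0.23, edgeR adjusted p = 1.34e-07). Between the OPC lines, where 13.0% of all genes were called higher and 15.0% lower, 3 of 7 were called higher in H3.3K27M. These included E2f1 (1.67) and Ccne2 (1.58), while Npat was not called (0.09). Of 6 histone chaperone genes, 4 were higher in H3.3K27M. Chaf1a, a subunit of the CAF-1 complex that deposits new histones at replication forks, was at 0.317 and 0.496 CPM in WT-H3.3 and 5.20 and 2.54 in H3.3K27M. The replacement histones are made independently of replication, mostly from polyadenylated mRNAs, although H2afx also has a stem-loop transcript. Of these, 6 of 8 were higher in H3.3K27M and 0 lower. H2afz was at 12.8 and 18.6 against 59.2 and 56.9 CPM, and H2afx at 79.8 and 91.2 against 315 and 281. H3f3a, which codes for H3.3, was at 30.8 and 32.8 against 83.0 and 81.3. The other H3.3 gene, H3f3b, had a much higher level and was not called higher, at 1630 and 1850 against 1280 and 1660. Which of these reads came from the transgene cannot be told apart in gene counts.

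S phase genes moved with line and stage as well. Between the OPC lines all 12 of those measured were called higher with the mutant (13.0% of all genes, median 1.64). All 12 were lower in OPCs than in ESCs (37.1% of all genes, median -1.97). At 72 h in RA, 7 of 12 were lower than in ESCs (32.3% of all genes, median -1.10). Their summed level was 4410 to 5880 CPM in ESCs without the shallow library, 3160 to 3350 in RA cells at 24 h, 2380 to 2990 at 72 h, 789 and 989 in WT-H3.3 OPCs and 2780 and 2980 in H3.3K27M OPCs. The libraries with the highest histone sums, those of WT-H3.3 OPCs, therefore had the lowest S phase sums, and Pcna was at 24.4 and 35.2 CPM there against 106 and 98.9 in H3.3K27M. From 24 to 72 h in RA, 1 of 12 S phase genes was called higher and 1 lower (20% and 22.9% of all genes, median -0.03), while 19 of 21 tested members were called higher. Most of those members passed the filter on low counts through the libraries of 72 h.

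**Figure D5:**
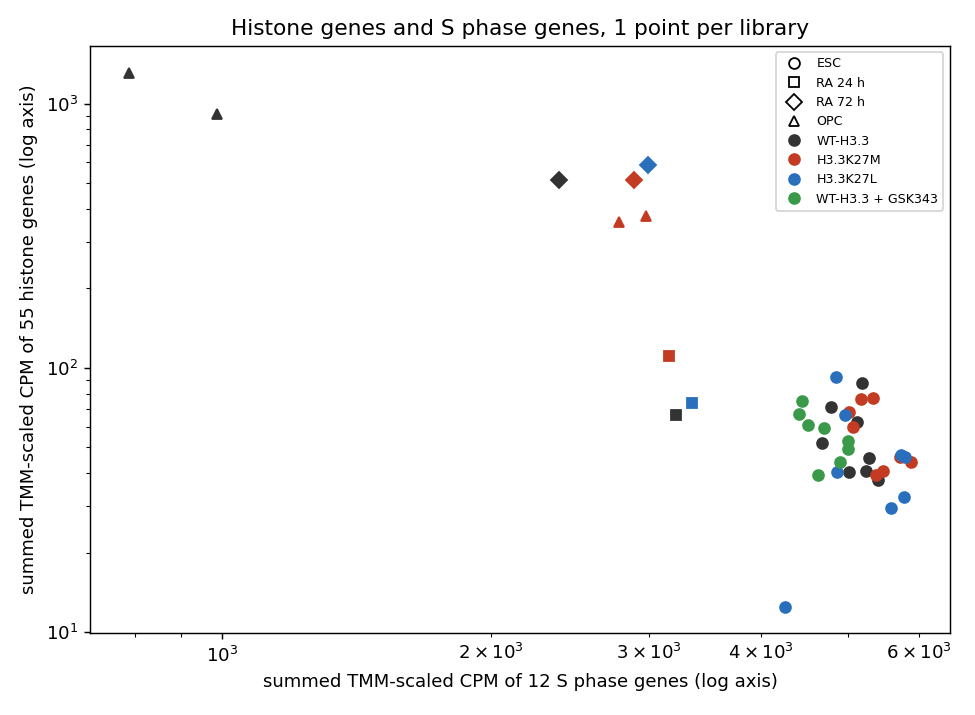
Summed TMM-scaled CPM of the 55 histone genes (vertical) against that of 12 S phase genes (horizontal), both on log axes, 1 point per library, with shape for stage and colour for line. The 2 WT-H3.3 OPC libraries, at 1310 and 910 CPM, stand at the upper left, and the ESC libraries at the lower right.

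The cell labels were checked with markers. Of 6 pluripotency markers, 6 were called lower than in ESCs at each RA time and 5 in OPCs (20% and 32.3%, then 37.1% of all genes). Pou5f1 was at 0 in all 4 OPC libraries and at 0 to 5.55 CPM in RA cells, against 458 to 888 in ESCs. Sox2, however, was at 232 to 330 CPM in OPCs against 325 to 545 in ESCs. Klf4 was at 127 and 117 in WT-H3.3 OPCs and 214 and 216 in H3.3K27L RA cells, against 213 to 609 in ESCs. In OPCs Olig2 was at 400 and 333 CPM in WT-H3.3 and 1160 and 1220 in H3.3K27M, but Sox10 did not pass 4.09 or Mbp 2.97, and Pdgfra was at 18.8 and 28.1 against 0.670 and 0.951. In RA cells Pax6 was at 12.1 to 42.4 CPM, and Col3a1 at 25.5 to 304. Between the OPC lines, 6 of 7 fibroblast markers were lower in H3.3K27M and 1, Thy1, higher, where 15.0% and 13.0% of all genes were. Their sums were 680 and 747 CPM in WT-H3.3 against 32.7 and 28.5. Of 5 astrocyte markers 3 were lower and none higher: Gfap was at 40.5 and 28.9 against 0.335 and 0, while the list's sum, led by Slc1a3, was 1010 and 1010 against 1060 and 1470. Of 8 oligodendrocyte lineage markers 5 were higher and 2 lower, with sums of 662 and 628 against 2040 and 2300. The part of cell composition in the histone differences between the OPC lines was not tested.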

How the data were processed

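Per the labels and the study's methods, the authors aligned reads to mm9 with STAR 2.7.1 and deposited raw counts per gene. The counter and its strand setting are not given in the sources used here. Of the genes, 32589 were matched to the NCBIM37 annotation and held 98.2% of counts, and 22882 were not. As in the study, the 1435 genes of chromosome 8 (5.78% of counts) were left out. The study describes 2 biological replicates made weeks apart and, for RA cells, pools both times. The RA and OPC tables analysed here held 1 library per line and time, so that p-values there measure the spread around an additive line and time fit (RA) or between Dox times (OPC).

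Counts were tested with edgeR 4.0.16 (R 4.3.3): TMM, filterByExpr, quasi-likelihood F-test and Benjamini-Hochberg adjustment over all genes of a model. The ESC model had a mean for each group and time, the RA model line and time, the OPC model line, and the model of 42 libraries stage and line or treatment. A call needed an adjusted p under 0.05 and a fold above 2 or below 0.5. DESeq2 1.42.0, its size factors in edgeR, no filter on low counts, chromosome 8 kept, other sets of libraries, the replicate number as a block, and leaving out each library were alternatives. One comparison of each model was checked on simulated counts. Levels are TMM-scaled CPM, with 0.5 added on log axes. Floors cover counting error only.

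Over 8936 genes, ESC H3.3K27M and WT-H3.3 libraries of the same replicate number deviated together at all 4 times (r 0.58 to 0.694), so that these numbers pair the libraries, whereas those of H3.3K27L (r -0.552, -0.691 and -0.628 at 4, 8 and 24 h and 0.247 at 72 h) and GSK343 (r -0.409 to 0.589) did not. All 517 pairs of libraries compared differed by more than counting noise (lowest chi-square per gene 1.853).

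The members and all lists were chosen with earlier results of these data known. Full values are given for the 3 members of highest mean CPM in each class and for up to 5 called members of lowest adjusted p in each direction of a comparison, and any other member may be named. Stem-loops were searched in the mm9 genome and promoters taken from RefSeq.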

Additional observations from a re-analysis of the deposited data

Results flagged for a closer look

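Of 60 sets of 8 ESC libraries (a named member in 1 line or treatment), 13 held a library that stood apart by Dixon's criterion. Its rate of about 1 in 20 by chance holds for independent, normally distributed values. The sets here share libraries and many values are few counts, so the 13 cannot be set against that rate. In WT-H3.3, replicate 1 at 8 h had Hist1h1e at 5.08 CPM (others 1.08 to 2.10), Hist1h1d at 7.70 (1.43 to 3.97), Hist1h3e at 4.46 (0.541 to 2.32) and Hist1h3c at 2.28 (0.248 to 1.16). In H3.3K27M, replicate 1 at 8 h had Hist1h3c at 2.63 (1.16 to 1.84) and Hist1h3a at 1.97 (0.165 to 1.00). Replicate 2 of GSK343 at 8 h, with 1247934 counts, had Hist1h1d at 7.88 CPM (1.04 to 3.63), Hist2h2be at 3.15 (1.02 to 1.69) and Hist1h4h at 3.15 (0.181 to 1.08). In H3.3K27L, Hist1h1e was at 7.39 CPM in replicate 2 at 8 h (0 to 2.51, the 0 being the library of 68378 counts) and Hist3h2a at 2.12 in replicate 1 at 72 h (0 to 0.755). That shallow library had 0.0 CPM of Hist1h1c (5.95 to 9.89) and 0.0 of Hist1h2bc (4.92 to 7.56).

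For 6 of 13 members compared, both H3.3K27M libraries moved one way against WT-H3.3 in OPCs and the opposite way in RA cells at the same Dox time. The log2 fold change in OPCs and in RA cells was -2.49 and 0.65 for Hist1h1c, -1.16 and 0.56 for Hist3h2a, -2.47 and 0.83 for Hist1h2ac, -0.95 and 0.26 for Hist3h2ba, 2.39 and -1.0 for Hist1h3c and -3.63 and 0.12 for Hist1h4h. None of the RA values was called, and the difference between the stages was not tested.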

How the results depend on the processing

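No called member changed direction under any alternative run. The split of all genes did: at 72 h in RA against ESCs as given in the report, and between the ESC times from 106 higher and 76 lower to 158 and 211 with no filter on low counts. For named members, leaving out a library kept 3346 results on their side of the threshold, made 33 pass it and 54 miss it. The other alternatives kept 1340, made 26 pass and 18 miss. The number of members called moved by over 1.5 times as follows, and the cause was not tested except where stated. In ESCs, H3.3K27L against WT-H3.3 had 1 called by adjusted p alone and 1 with no filter on low counts, and the late against early times 4 by adjusted p alone, 4 with no filter and 1 with DESeq2. In RA cells, the call of H3.3K27L was 0 with DESeq2, 0 with chromosome 8 kept, 0 with only the libraries compared and 0 with Dox times pooled. RA cells at 24 h against ESCs had 5 called against ESC libraries of 24 and 72 h without GSK343, and 16 (5 higher and 11 lower) against ESC libraries with a length coefficient under 0.05, an alternative chosen after seeing the data. Leaving out each library gave 0 to 4 for the ESC times, 0 to 1 for H3.3K27M and 0 to 3 for H3.3K27L in RA cells (0 without H3.3K27L at 72 h), 5 to 10 for RA cells at 24 h against ESCs (5 without H3.3K27M) and 6 to 12 for OPCs against RA cells of 72 h. It gave 14 to 19 for the RA times and 10 to 13 for the OPC lines. A library left alone in its group was assumed to vary like the others. With the replicate number as a block, which pairs H3.3K27M with WT-H3.3 in ESCs, 0 members were called between them, as without it, while all genes called went from 2 to 24. For H3.3K27L at 24 and 72 h, all genes called went from 77 to 154 with this block, with 0 members. With the numbers crossed in the H3.3K27L and GSK343 groups whose correlation with WT-H3.3 was under -0.1, chosen after seeing the data, 0 members were called for both, and 49 higher and 184 lower of all genes for H3.3K27L at 24 and 72 h. In OPCs, where the replicate block is the same as Dox time, it left 5 higher and 8 lower, and it gave 3 for the ESC times.

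Depth limits most members: a count of 3 was 0.135 to 2.4 CPM outside the shallow library, and 35 of the 55 reached 10 counts anywhere. Some fold changes given rest on few counts, such as that of Hist2h4 between the ESC times, with 0 to 3 counts in many late libraries.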
